A study of Homo sapiens with 6 samples.

Results

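The chromatin modifiers and remodelers described here were the genes whose symbols start with KDM, KMT, SETD, HDAC, CHD, BRD, ARID or PHF and a digit, or with SMARC. There were 90 such genes among the 10779 genes of both tables. Of these, 70 were among the 8121 genes with a translation efficiency (TE), 80 were among the 9570 transcripts with a ribosome occupancy profile, and 60 were in both. The data came from HEK293, an established human embryonic kidney cell line, treated with a control siRNA. The living cells were given 100 µg/ml cycloheximide, a drug that holds elongating ribosomes on the mRNA, for 3 min, and it was kept in the wash and the lysis buffer. Each of the 3 replicates gave a library of ribosome-protected fragments (RPFs) and a library of rRNA-depleted total RNA from the same lysate. No other condition was part of the data, so each gene was compared with all other genes of the same cells, and with a single cell line the values cannot speak for other cell types. TE was the ratio of RPFs to total RNA in each replicate, with the part of the mRNA it covers not stated. The study's methods have the procedure done in triplicate and do not say whether each replicate was a separate culture or transfection, so p-values measure the spread between these samples, which may be technical. The occupancy profile gave, for each codon of 1 transcript per gene, the in-frame RPFs divided by the mRNA abundance of that transcript, with the replicates already combined by the authors, so that it carries no replicate error.

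Chromatin modifiers write or erase marks on histones: KMT and SETD proteins methylate lysines, KDM proteins remove methyl groups, and HDAC proteins remove acetyl groups. BRD proteins bind acetylated lysines and PHD fingers of the PHF proteins bind histone tails. CHD proteins and most SMARCA proteins use ATP to move nucleosomes, many of them as the motor of a large complex such as BAF, NuRD or ISWI. The SMARCB, SMARCC, SMARCD and SMARCE proteins are BAF subunits that are not ATPases, and ARID1A and ARID2 are DNA-binding subunits of BAF and PBAF. Some members of these name families act elsewhere. PHF5A is a subunit of the SF3b splicing complex and SETD3 methylates actin.

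The cell line is known from the study, and the markers below are a coarse check that cannot identify it. Among 8 genes that this line is known to express, 7 were present (PAX2 was not listed), and none of 7 blood and liver markers was listed. Among 3 fibroblast markers, COL1A1 and COL3A1 were present at 0.0425 and 0.0729 times the median mRNA abundance. In-frame CDS reads could be recovered from the steps of the occupancy values for all 80 members, which had a median of 2931 reads (range 46 to 74138), against 1822 over all transcripts.

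The members as a group had low TE. Their median TE was 0.247, against 0.385 for all genes, and their median difference from the median of all genes was -0.62 on the log2 scale. By limma's test at a false discovery rate of 0.05, 20 of 70 members were above the median of all genes, where 44.7% of all genes were, and 42 were below it, where 44.6% of all genes were. Over 2-fold above the median were 8 members, against 23.3% of all genes, and over 2-fold below were 21, against 18.2%. The replicates of a member were close to each other, since the SD of log2 TE had a median of 0.10 among members and 0.10 among all genes. The range among members was far wider, from 0.0353 for SMARCA4 to 4.81 for SMARCA5.

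**Figure D1:**
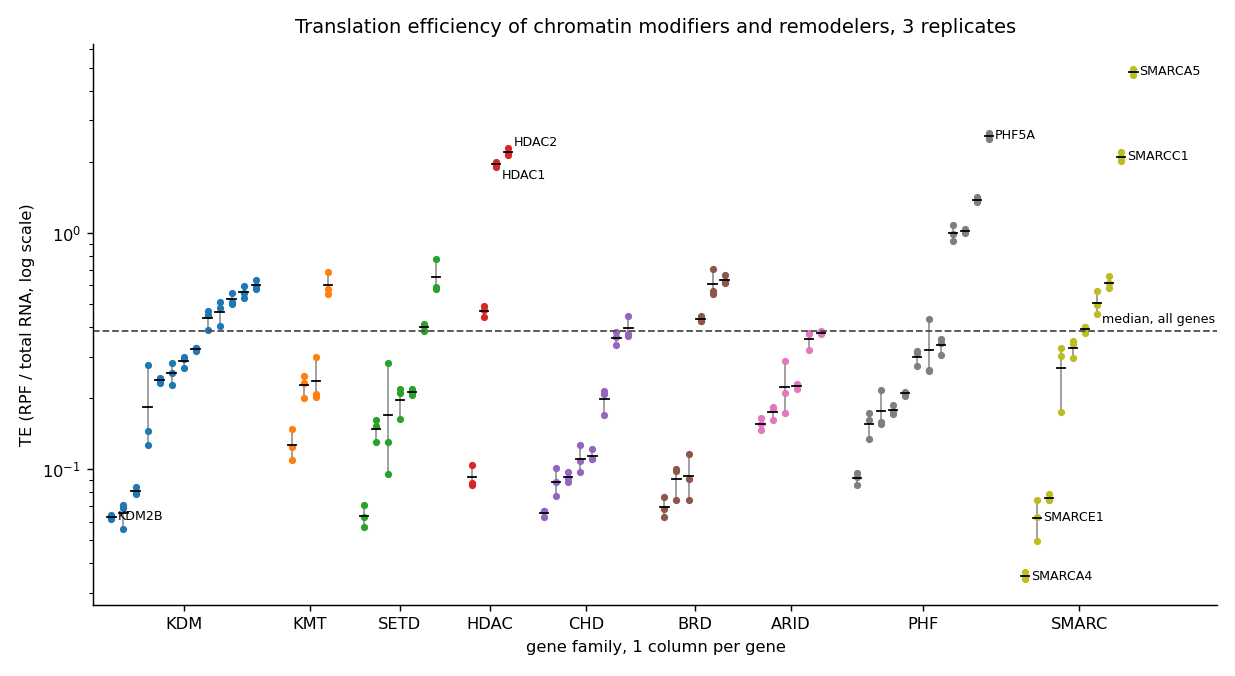
TE of the 70 members by gene family on a log scale; each column is a gene, points are the 3 replicates, the black bar is their mean, the thin line their range and the dashed line the median TE of all genes (0.385). SMARCA5 (4.81), PHF5A, HDAC2, SMARCC1 and HDAC1 lie at the top, SMARCA4 (0.0353) at the bottom.

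The highest TE was found for an ISWI ATPase, a splicing factor, the deacetylases HDAC1 and HDAC2 and a BAF scaffold. SMARCA5 (SNF2H), the ATPase of the ISWI remodelers, had TE values of 4.93, 4.67 and 4.83 in replicates 1 to 3. Its mean of 4.81 ± 0.132 (SD, n = 3) was 12.3 times the median of all genes, a log2 difference of 3.62 (SE 0.05, limma adjusted p = 1.06e-06). SMARCA5 stood at percentile 97.5 of all genes, and no replicate of any other member reached its lowest value. PHF5A followed with 2.64, 2.60 and 2.50 (mean 2.58 ± 0.0718).

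The class I deacetylases HDAC2 and HDAC1, which act in NuRD, SIN3 and CoREST complexes, came next together with SMARCC1 (BAF155), a scaffold of BAF. HDAC2 had TE values of 2.17, 2.14 and 2.30, SMARCC1 had 2.09, 2.03 and 2.20, and HDAC1 had 2.00, 1.96 and 1.91. The ranges of HDAC2 and SMARCC1 overlapped, although HDAC2 was the higher in each of the 3 replicates. The remaining members over 2-fold above the median were the PHD finger proteins PHF13 (1.38 ± 0.0339), PHF6 (1.02 ± 0.0189) and the PBAF subunit PHF10 (0.999 ± 0.0762), and PHF6 and PHF10 overlapped. Of these 8, 30.6% of the CDS 30-mers of PHF5A, 31.1% of those of PHF10 and 8.24% of those of HDAC1 also occur in transcripts of other genes in GENCODE. The genes that shared most with them were PHF5AP1, PHF10P1 and HDAC1P2. Whether such transcripts were among the sequences the authors aligned to is not known, so neither is the share of reads that could not be assigned. The part of shared sequence in their TE was not tested.

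At the other end stood SMARCA4 (BRG1), the ATPase of BAF. Its TE was 0.0347, 0.0342 and 0.0369, a mean of 0.0353 ± 0.00141 and a log2 difference of -3.12 from the median of all genes (SE 0.05, limma adjusted p = 1.31e-06), which placed it at percentile 0.271. All 3 of its values lay below those of every other member. SMARCE1 (BAF57) had 0.0497, 0.0630 and 0.0741. Here 95.0% of the CDS 30-mers also occur in another annotated gene, and the part of this in its low value was not tested. The H3K36 demethylase KDM2B had 0.0617, 0.0642 and 0.0630, and the SET domain protein SETD5 had 0.0707, 0.0568 and 0.0625. The H3K27 demethylase KDM6A (UTX), with 0.0685, 0.0557 and 0.0708, and the NuRD ATPase CHD3, with 0.0663, 0.0663 and 0.0629, were as low. The acetyltransferase partner BRD1 (0.0689 ± 0.00675) and SMARCD2 (0.0755 ± 0.00271) completed the lowest 8 by mean. SMARCE1, KDM2B, SETD5, KDM6A, CHD3 and BRD1 overlapped each other and cannot be ranked. SMARCD2 overlapped SMARCE1, BRD1 and also KDM5C, the next gene by mean, so the edge of the lowest 8 is not resolved either.

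The sequences around the start codons of the highest and lowest members are shown because initiation is where the ribosome enters the CDS. Each is 12 bases before the start codon, the ATG in capitals and 12 bases after it, from GENCODE 44 on GRCh37, within a single exon.
SMARCA5: agacggaacatcATGtcgtccgcggcc
HDAC2: gccggggagcccATGgcgtacagtcaa
SMARCC1: cgggctgcgacgATGgccgcagcggcg
HDAC1: gaggcgagcaagATGgcgcagacgcag
SMARCA4: gctcccgtgaagATGtccactccagac
KDM2B: tgcctcctccacATGgcgggtccgcaa
SETD5: gtgttggacgtcATGagcattgcaatc
KDM6A: cgctgcgtttccATGaaatcctgcgga

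They lie at chr4:144435066-144435092 (+), chr6:114292058-114292084 (-), chr3:47823273-47823299 (-), chr1:32757759-32757785 (+), chr19:11094816-11094842 (+), chr12:122018802-122018828 (-), chr3:9470611-9470637 (+) and chrX:44732786-44732812 (+), in the order shown, each across the end of the 5′UTR and the start of the CDS. An A or G stood 3 bases before the ATG in SMARCA5, SMARCC1, HDAC1, SMARCA4 and SETD5, and not in HDAC2, KDM2B and KDM6A, so the lowest and highest members did not part by this base. SMARCA5 and SMARCA4, at the opposite ends of the range, had the same bases at -3 and +4. An A or G at -3 was found in 58 of 75 members with a matched transcript, against 85.8% of all matched transcripts, and a G at +4 in 41 of 75, against 52.9%. The reference 5′UTRs of SMARCA5, HDAC2, SMARCC1 and HDAC1 held no upstream ATG, and neither did those of SMARCA4 and SMARCE1, both low in TE. Those of KDM2B, SETD5 and KDM6A held 2, 3 and 1. Over all members, 42 of 78 held none, against 56.5% of all transcripts.

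The counts by family, here and in the next paragraphs, are to be read beside the shares of all genes. These were 44.7% above the median, 44.6% below, 23.3% over 2-fold above and 18.2% over 2-fold below. Families hold few genes, so splits near these shares are not read as a trait of a family. By family, the CHD remodelers had the lowest median TE, 0.113. Of 8 measured, none was above the median of all genes, 6 were below it and 5 were over 2-fold below. CHD4, the main NuRD ATPase, had 0.0769, 0.0880 and 0.101, but 99.2% of its CDS 30-mers also occur in another annotated gene, as do 91.4% of those of CHD1L (0.0929 ± 0.00469). CHD2 (0.111 ± 0.0148) and CHD8 (0.114 ± 0.00635), a remodeler that binds β-catenin, shared at most 0.156% of their 30-mers and were also over 2-fold below the median. CHD1 (0.395 ± 0.0438) and CHD7 (0.361 ± 0.0241) did not pass the test, with limma adjusted p = 0.659 and 0.217.

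Of 13 KDM demethylase genes, 4 were above the median and 8 below, against 44.7% and 44.6% of all genes. The H3K4 demethylases KDM5A (0.603 ± 0.0283) and KDM5B (0.562 ± 0.034) were the highest of the family, while their X-linked paralog KDM5C had 0.0844, 0.0800 and 0.0783. KDM1A (LSD1), the FAD-dependent demethylase of CoREST, was slightly low at 0.323 ± 0.0058, and KDM1B was slightly high at 0.464 ± 0.0551, a call that was lost without replicate 1 or 3. KDM4A had 0.525 ± 0.0312, although 59.6% of its CDS 30-mers also occur elsewhere, and KDM4B had 0.145, 0.127 and 0.277, so replicate 3 stood apart from the other two.

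Of the 4 KMT genes, KMT5A, which monomethylates H4K20, was above the median (0.606 ± 0.0707), and 3 were below. These were KMT5B (0.127 ± 0.0192), KMT2A (MLL1, 0.227 ± 0.0247) and KMT2C (0.237 ± 0.054). KMT5A and KMT2A share 54.3% and 30.1% of their CDS 30-mers with other annotated genes. In the SETD family 1 of 7, the H3K4 methyltransferase SETD1A, was above the median (0.780, 0.590 and 0.582), and 5 were below, among them SETD2, which trimethylates H3K36 (0.148 ± 0.0161). SETD7 (0.401 ± 0.0142) was not called (limma adjusted p = 0.288), and SETD4 was the least reproducible member, with 0.0953, 0.131 and 0.282.

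The 4 HDAC genes with a TE all encode class I enzymes. HDAC1, HDAC2 and HDAC3 (0.469 ± 0.0246, the NCoR/SMRT deacetylase) were above the median, HDAC3 only as long as the reference was the median and not the mean of all genes. HDAC8 was over 2-fold below it (0.0925 ± 0.00981), with 97.9% of its CDS 30-mers also found in another annotated gene. Among 6 BRD genes, 3 were above the median and 3 were over 2-fold below it. BRD7 of PBAF had 0.662, 0.617 and 0.625, and BRD3 had 0.426, 0.424 and 0.447. BRD3 was barely above the median (log2 difference 0.17, limma adjusted p = 0.0234) and was no longer called when any replicate was left out. Of the CDS 30-mers of BRD7, 72.0% also occur in another annotated gene. BRD1, BRD8 (0.0909 ± 0.0143) and BRD9 (0.0939 ± 0.0213) were the low members.

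None of the 6 ARID genes was above the median. ARID1A, the BAF subunit most often lost in cancers, had 0.147, 0.165 and 0.156, and ARID2 of PBAF had 0.183, 0.162 and 0.180. ARID3B was the highest of the family, at 0.379 ± 0.00402, with 67.5% of its CDS 30-mers also found elsewhere. In the PHF family 4 of 12 genes were over 2-fold above the median and 2 were over 2-fold below, PHF23 (0.0917 ± 0.0056) and the Polycomb-like protein PHF19 (0.156 ± 0.0198). PHF8, a demethylase of H3K9, had 0.210 ± 0.00387. Of 10 SMARC genes, 4 were above the median and 5 below, and SMARCD1 (0.393 ± 0.0128) was not called.

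Calls were also grouped by complex, to be read beside 44.7% of all genes above the median and 44.6% below. Each complex holds few genes, so its counts are not read as a trait of the complex. Of 11 BAF and PBAF subunits among the members, 4 were above the median (SMARCC1, PHF10, BRD7 and SMARCC2), 6 were below (SMARCA4, SMARCE1, SMARCD2, BRD9, ARID1A and ARID2), and their mean TE ran from 0.0353 to 2.11. In NuRD both deacetylases were above the median and both ATPases, CHD3 and CHD4, were below. Both ISWI ATPases, SMARCA5 and SMARCA1 (0.506 ± 0.057), were above it. Of 7 SIN3 and CoREST subunits, HDAC1, HDAC2, KDM5A and KDM5B were above the median, KDM1A and ARID4B (0.223 ± 0.0576) were below, and PHF21A was not called. SETD1A was above and KMT2A and KMT2C were below among the COMPASS methyltransferases. HDAC6, ARID1B and KMT2D were not analysed here.

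Other chromatin genes, from lists of complex partners and of other classes of regulator, were less shifted. Of 167 measured, 65 were above the median, 83 were below, 33 were over 2-fold above and 36 over 2-fold below, with a median TE of 0.349. Over all genes the shares were 44.7%, 44.6%, 23.3% and 18.2% in the same order, so these counts are near the background. The classes below are to be read beside the same shares, and several hold few genes. Among partners of the members, 2 of 9 other NuRD subunits were above the median and 7 below. Their extremes were the histone-binding subunit RBBP4, with 1.75 ± 0.135, and MBD3, with 0.0580 ± 0.00338. Of 8 other BAF and PBAF subunits, 4 were above and 4 below, from 2.51 ± 0.119 for BCL7A to 0.0765 ± 0.00393 for SS18. Of 23 Polycomb genes 9 were above the median and 12 below, of 13 acetyltransferases 5 were above and 6 below, and of 21 other methyltransferases, KMT5A and KMT5B included, 4 were above and 14 below. Demethylases and JmjC proteins outside the rule were below the median in 5 of 5 cases, DNA methylation genes in 4 of 6, other remodelers, CHD1L included, in 6 of 11, and 1 of 2 sirtuins was. INO80, SRCAP and TIP60 subunits were above in 7 of 18 cases and below in 8. Histone chaperones, in contrast, were above the median in 11 of 13 cases and heterochromatin proteins in 6 of 6, up to 25.7 ± 3.56 for ANP32B.

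TE was measured for both genes of 17 pairs of paralogs, and the 3 replicates of the pair did not overlap in 16 of them (94.1%). Of all pairs of genes in the table, 90.2% did not overlap either, so the count is near the background. No test is given for a pair, since an exact permutation test of 3 against 3 values cannot go below p = 0.1. SMARCA5 was 9.51 times SMARCA1, KDM5A was 7.45 times KDM5C and BRD7 was 6.76 times BRD9. SMARCD1 was 5.21 times SMARCD2, and SMARCC1 was 3.41 times SMARCC2 (0.618 ± 0.0354). HDAC2 and HDAC1 differed by only 1.13 times. KDM5A and KDM5B were the pair that overlapped.

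The occupancy profiles gave another view of the same RPF libraries, and it did not always give the same order of paralogs. In 14 of 16 pairs found in both tables the gene with the higher TE also had the higher CDS occupancy. The 14 include BRD7 and BRD9, only 1.002 times apart in occupancy, and the share among all pairs of genes was not counted. The exceptions were KDM5A and KDM5B, which overlapped in TE, and PHF2 and PHF8, where PHF2 had 1.43 times the TE but 0.304 times the CDS occupancy. The size of the difference varied as well. HDAC2 and HDAC1, nearly equal in TE, had mean CDS occupancies of 0.606 and 0.0828 in-frame RPFs per codon and unit of mRNA, and SMARCA5 and SMARCA1, 9.51 times apart in TE, had 0.180 and 0.149. BRD7 and BRD9, 6.76 times apart in TE, had nearly the same CDS occupancy, 0.0194.

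The median CDS occupancy of the 80 members was 0.0346, against 0.0450 for all transcripts, and 48 of the 80 lay below the latter. HDAC2 was at percentile 99.2 of all transcripts. Among the next were SMARCA5 at 0.180, PHF21A at 0.175, SMARCA1 at 0.149 and the H3 reader PHF14 at 0.120. The core BAF subunit SMARCB1 (SNF5), which had no TE value here, followed at 0.113, with 18261 CDS reads. SMARCA2 (BRM), the alternative ATPase of BAF, had 0.0549, beside 0.0494 for SMARCA4. The lowest values were those of the class IIa deacetylase HDAC5 (0.00459), SMARCD3 (0.0105), HDAC10 (0.0111), ARID5A (0.0113) and KDM2B (0.0116). HDAC10 rested on 68 reads and HDAC11 (0.0159) on 46, and they were the 2 members with under 100. The class IIa deacetylases HDAC4, HDAC5 and HDAC7 lay between 0.00459 and 0.0242. The class I enzymes HDAC3 (0.0301) and HDAC8 (0.0298) were close to the upper end of these, and only HDAC1 and HDAC2 of the 9 HDAC genes were above the median of all transcripts.

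**Figure D2:**
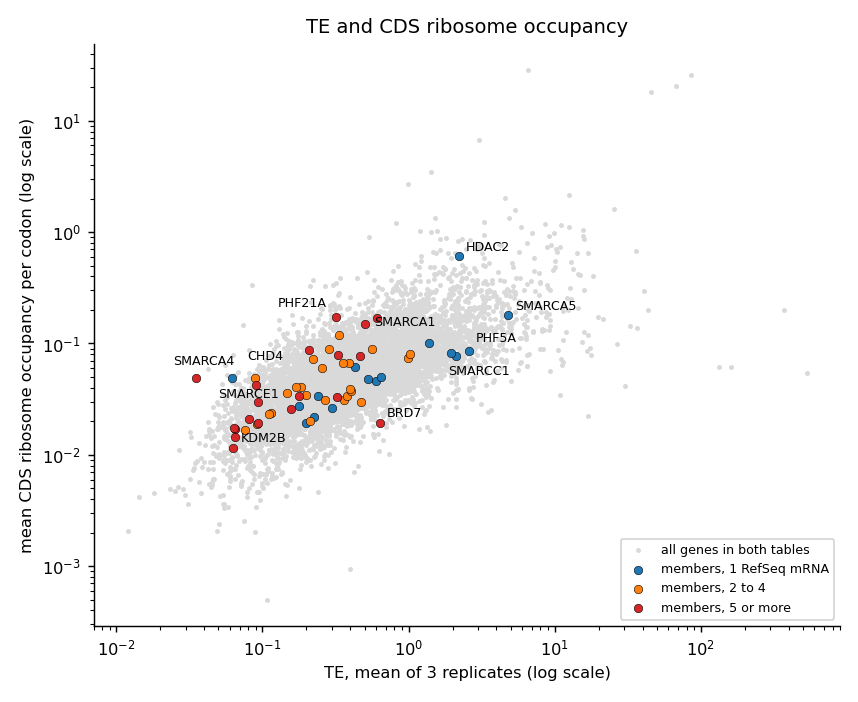
Mean TE of 3 replicates against mean CDS ribosome occupancy per codon, both on log scales, for all genes in both tables (grey) and the 60 members, coloured by the number of RefSeq mRNAs of the gene. SMARCA4, SMARCE1 and CHD4 lie at the left edge of the TE axis at CDS occupancies (0.0494, 0.0487 and 0.0489) near the middle of the other axis.

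Across the 60 members in both tables, TE and CDS occupancy had a Spearman correlation of 0.65, and 0.69 over 6912 genes. Both share the RPF libraries, so this is a description. A few members departed from it. SMARCA4 was at percentile 0.246 of TE among the genes in both tables but at percentile 46.5 of CDS occupancy. SMARCE1 was at 2.04 and 45.6, and CHD4 was at 5.43 and 45.9. The CoREST subunit PHF21A (BHC80) was at 42.4 and 92.9, and PHF8 was at 26.8 and 74.6. In the other direction, BRD7 was at percentile 67.3 of TE and 10.6 of CDS occupancy, and HDAC3 was at 57.2 and 23.0. SMARCA4 was thus the lowest member in the gene-level ratio to total RNA and near the middle of all genes when in-frame footprints were set against the abundance of its transcript.

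The number of annotated mRNAs moved with TE. Over all genes the median TE was 0.595 for those with 1 RefSeq mRNA, 0.370 for 2 to 4 and 0.241 for 5 or more, while the median CDS occupancy was 0.0463, 0.0455 and 0.0428. Among members the medians were 0.480 (18 genes), 0.255 (29 genes) and 0.127 (23 genes) for TE. SMARCA5, PHF5A, HDAC2, SMARCC1, HDAC1 and PHF13 each had 1 RefSeq mRNA. They were 33.3% of the members with 1 mRNA, and 37.1% of all such genes were also over 2-fold above the median. No member of 23 with 5 or more was, against 10% of all such genes, so both counts are near the background. SMARCA4 had 10, KDM2B 16, KDM6A 14, SETD5 7 and CHD3 7, and SMARCE1 was the exception with 1. Over 2-fold below the median were 13 of 23 members with 5 or more mRNAs, 7 of 29 with 2 to 4 and 1 of 18 with 1, against 31.2%, 18.5% and 8.59% of all genes. The part of transcript annotation in the TE of these genes was not tested. The Spearman correlation of TE with the number of RefSeq mRNAs was -0.44 over 60 members and -0.34 over 6588 genes.

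**Figure D3:**
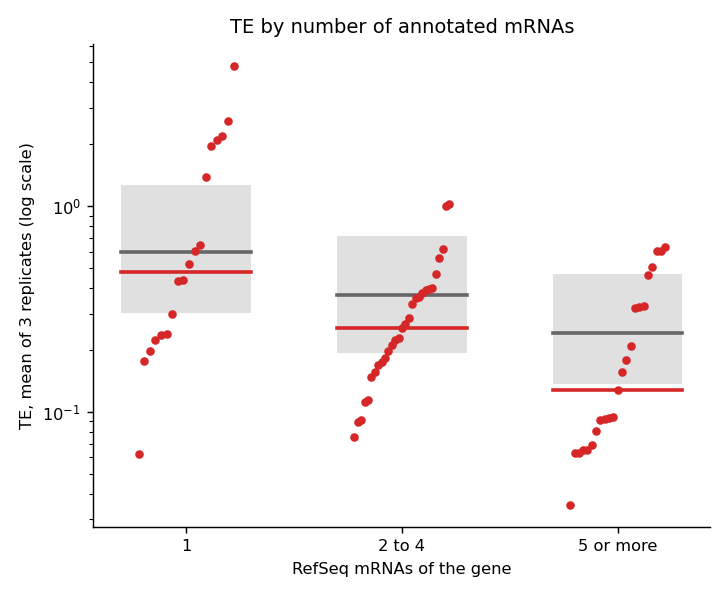
Mean TE on a log scale for genes with 1, 2 to 4 and 5 or more RefSeq mRNAs; red points are members and red lines their medians, grey boxes are the interquartile range of all genes with the grey line at the median. The member medians fall from 0.480 to 0.127 and those of all genes from 0.595 to 0.241.

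When the fit was made over only the 2502 genes with 1 RefSeq mRNA, 6 of 18 members were over 2-fold above the median of these genes, where 23.3% were, and 5 were over 2-fold below, where 19.8% were. These were 33.3% and 27.8% of the 18, and on so few genes both counts are near those shares. In CDS occupancy, the median of the 17 members with 1 RefSeq mRNA was 1.07 times that of all such transcripts. This fit was chosen after seeing the data.

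Members also had long coding sequences, with a median of 917.5 codons against 448 over all transcripts. Among transcripts of 500 codons or more, 60 members had a median CDS occupancy of 0.0340 against 0.0368 for all, and the 45 with a TE had a median of 0.268 against 0.314 for all. Among shorter transcripts, 20 members had a median CDS occupancy of 0.0362 against 0.0540. The coding sequences of members held more lysine codons (median 7.25% against 5.91%), more acidic codons (13.97% against 12.05%) and more serine codons (8.33% against 7.48%) than those of all 8741 matched transcripts, with a similar GC content (50.3% against 51.1%). GC content moved with CDS occupancy, with a Spearman correlation of -0.40 over 78 members and -0.44 over 8738 transcripts.

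In-frame footprints before the annotated start codon were a marked feature of a few members. For 64 members with a 5′UTR of 34 codons or more, the median ratio of 5′UTR to CDS occupancy was 0.0648, against 0.0464 for 6906 transcripts, and 38 of the 64 were above the latter. Upstream open reading frames (uORFs) are short frames in the 5′UTR that ribosomes can translate before reaching the CDS. Only reads in the frame of the main CDS were counted, so a uORF in another frame is seen in part at most.

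KMT2E (MLL5), a SET domain protein that reads H3K4 methylation, had the highest ratio of all members, 2.73, from 248 reads over 174 codons of 5′UTR and 993 reads over 1859 codons of CDS, which placed it at percentile 99.5 of all transcripts. HDAC5 followed at 1.69 (93 and 562 reads), then SETD5 at 0.965 (213 and 2088 reads) and PHF19 at 0.641 (226 and 874 reads). HDAC11 had a ratio of 0.498 on 4 reads, which lie at codons that are coding in 5 of its 10 GENCODE transcripts, so that its 5′UTR is coding sequence in other isoforms. The same was found for no leading codon of the other 4. CHD7 (0.447), KDM5A (0.440), PHF6 (0.429) and KDM4B (0.363) came next in this order, with 200, 232, 830 and 65 reads in the 5′UTR.

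Codons that carried much of this upstream signal in 5 members are shown with 12 bases on each side, with the codon under the peak in capitals and numbered backwards from the start codon. All are exonic 5′UTR sequence from GENCODE 44 on GRCh37, and every reference transcript with the same CDS length that reached the window held it.
KMT2E codon -11: atgcataggactCCAtagtaatcgaat
KMT2E codon -29: ttagatgtttgcAATgagcactgtggc
HDAC5 codon -90: aaagatggaggaGCCgtcgaggaggtg
SETD5 codon -29: acatgttggatgAGGctctgcagctca
PHF19 codon -12: tccaagtgggacCGGcggacacgcagc
KDM4B codon -25: gcacctgacaaaTCCtagcgaattttt

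These windows lie at chr7:104681355-104681381 (+), chr7:104681301-104681327 (+), chr17:42200938-42200964 (-), chr3:9470524-9470550 (+), chr9:123639375-123639401 (-) and chr19:5016289-5016315 (+), in the order shown. In KMT2E an in-frame open reading frame ran from an ATG at codon -39 to a stop at codon -10, with a further ATG at -15, the first triplet of the window shown. Its highest codon, -11, held 23.8% of the 5′UTR occupancy and is the last triplet before that stop. Codons -29 and -16 held 10.5% and 8.64% and lie in the same frame.

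In SETD5 the 3 highest codons, -29, -33 and -30, held 17.9%, 9.92% and 9.21% of the 5′UTR occupancy. They lie in an in-frame uORF from an ATG at -36 to a stop at -10, and codon -30 is itself an ATG. In CHD7 a single ATG at codon -40, followed by an in-frame stop at -38, held 52.0% of the 5′UTR occupancy. The HDAC5 peak at codon -90 held 53.4%, and in its window an ATG out of the frame of the CDS starts at the fifth base. In KDM4B the highest codon was -32, a TTG with 18.9%. Codon -25, shown for the stop beside it, held 17.7% and is the last triplet before an in-frame stop at -24, which itself held 13.9%, with no in-frame ATG before it.

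The PHF19 signal was spread over neighbouring codons, -12, -13 and -14, with 29.5%, 19.8% and 17.9%. The 5′UTR length in the occupancy table differed from that of the matched reference transcript for most members (it was the same for 9 of 78), so these positions rest on the sequence next to the start codon being shared.

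**Figure D4:**
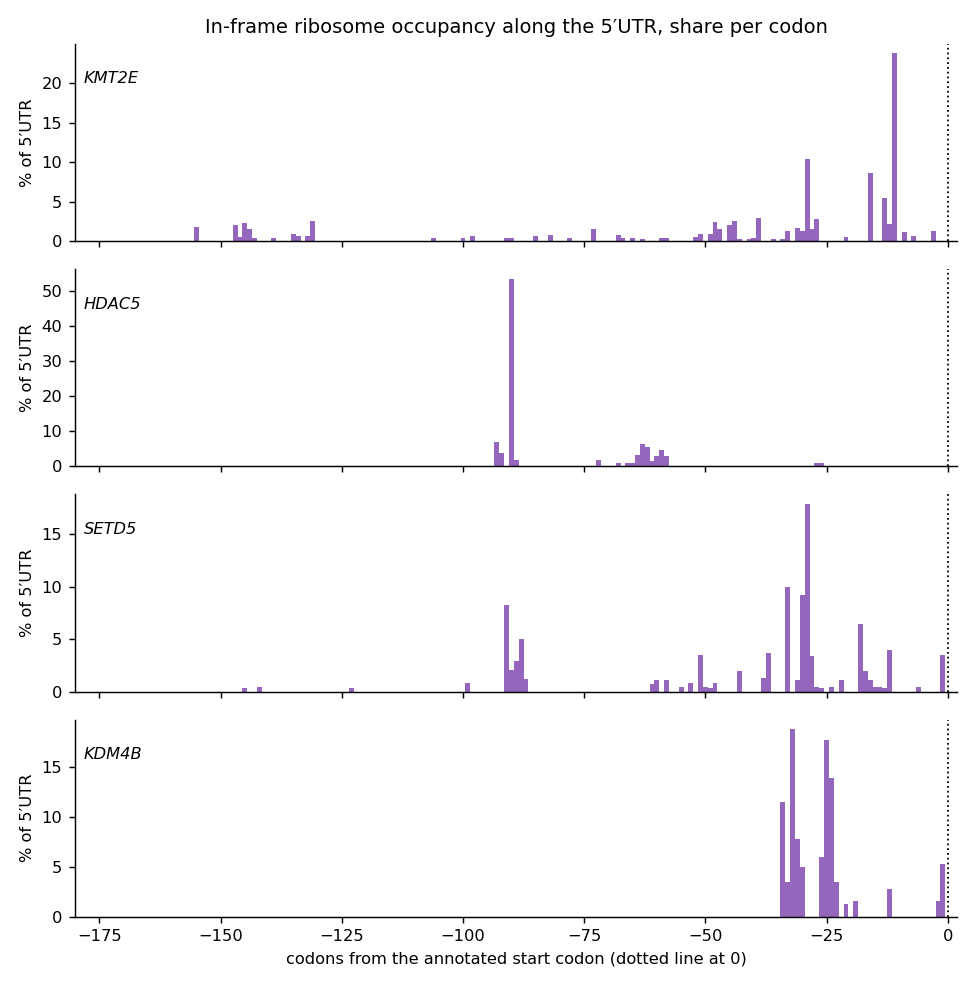
Share of the in-frame 5′UTR occupancy at each codon, in percent, against the distance in codons from the annotated start codon (dotted line), for KMT2E, HDAC5, SETD5 and KDM4B. HDAC5 shows a single dominant codon (53.4% at -90), and the highest codons of KMT2E, SETD5 and KDM4B lie closer to the start codon than that of HDAC5.

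Along the CDS, members differed widely in where the footprints lay. The ratio of the mean occupancy of the first 75 codons to that of the last 75 had a median of 0.901 over 79 members and 0.994 over all transcripts. Codon 1 averaged 2.43 times the transcript mean over 77 members and 2.53 times over 7848 transcripts. The medians were only 0.341 and 0.308 times, so in most transcripts of either set codon 1 lay below the transcript mean. The last 30 codons were at 0.803 times the mean in members and 0.954 times in all transcripts.

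The lowest ratios were those of HDAC7 (0.0390, on 284 reads), KDM2B (0.0460), SMARCD2 (0.0491), SETD6 (0.0919) and SMARCA1 (0.134). In SMARCD2, with 4983 reads, the first 5 of 20 equal bins held 0.00881 to 0.279 times the mean occupancy and the seventh bin 2.80 times. KDM2B was below its mean in each of its first 11 bins and reached 2.61 times in bin 20. In SMARCA1 bin 1 held 0.00481 times the mean and bin 2 held 2.33 times. The highest ratios belonged to CHD3 (12.4), the Polycomb-like PHF1 (8.96, on 125 reads), KDM4B (6.43), SETD3 (3.99), PHF2 (3.98) and PHF21A (3.70). CHD3 fell to 0.200 and 0.0873 times its mean in its last 2 bins, and KDM4B held 4.13 times its mean in bin 4 and 0.185 times in bin 20. KDM2B has 16 RefSeq mRNAs, SMARCA1 and CHD3 have 7 each, KDM4B has 4 and SMARCD2 has 3, and each profile was counted on a single transcript. The part of other isoforms in these shapes was not tested.

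**Figure D5:**
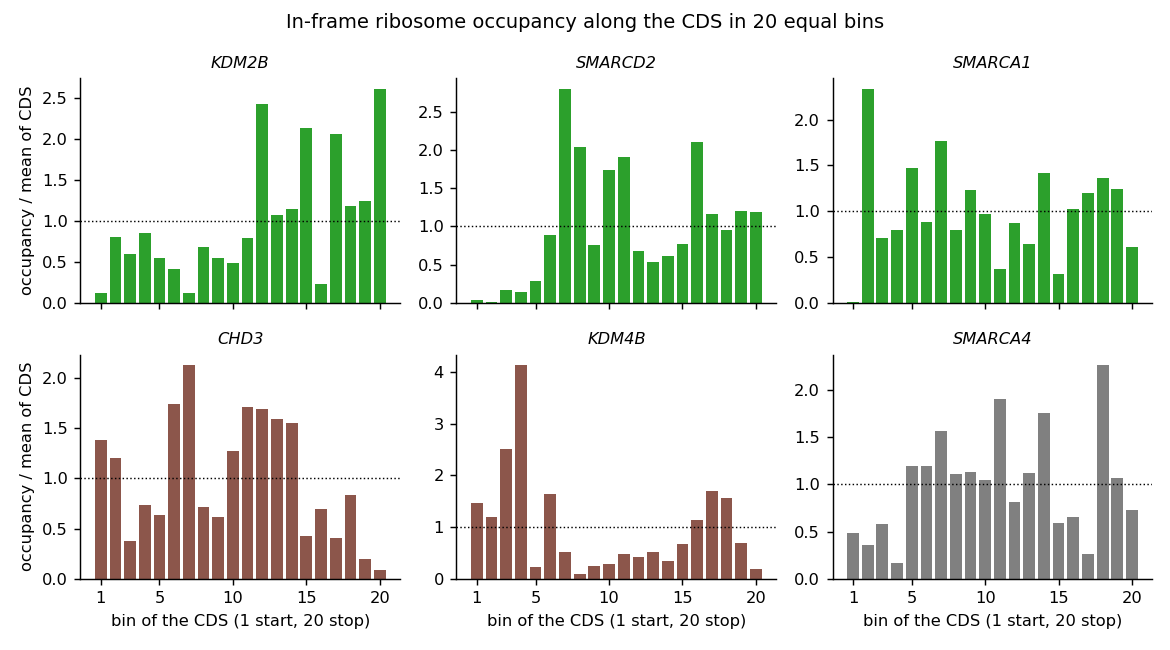
In-frame ribosome occupancy along the CDS in 20 equal bins, divided by the mean of the CDS, for members low at the start (KDM2B, SMARCD2 and SMARCA1, green), members low at the end (CHD3 and KDM4B, brown) and SMARCA4 (grey). SMARCD2 stays at or under 0.279 in its first 5 bins and CHD3 falls to 0.0873 in bin 20.

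Single codons stood out in some members. Leaving out the first 15 and last 5 codons, the highest codon held a median of 3.72% of the CDS occupancy in 78 members with at least 100 reads, against 4.66% in 9131 transcripts. The largest shares were 19.8% at codon 195 of SMARCD3 (168 reads), 18.1% at codon 36 of PHF19, 17.0% at codon 544 of PHF20L1, 15.5% at codon 203 of KDM4D and 12.4% at codon 107 of BRD3. BRD3 had 2812 reads, and this codon was 90.4 times the mean of its CDS. The windows of those within 1 exon are shown with the peak codon in capitals.
PHF19 codon 36: aacttcaaagacTTGatgtccaaactg
KDM4D codon 203: tacagcatcaacTACctgcaccttggg
BRD3 codon 107: caggacttcaacACCatgtttacaaat

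They are coding exon sequence at chr9:123636900-123636926 (-), chr11:94731131-94731157 (+) and chr9:136917446-136917472 (-). The 3 peak codons, TTG, TAC and ACC, differ from each other. In PHF19 and BRD3 an ATG stands directly after the peak codon, and in KDM4D it does not. At the other extreme, CHD1 and SETD2 had no codon above 0.693% and 0.694% of the CDS occupancy. HDAC3, with 5162 reads, held 8.39% at codon 21, and PHF5A, with 5696 reads, held 8.17% at codon 23.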

How the data were processed

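RPF and total RNA libraries of HEK293 cells under control siRNA (3 replicates each) were analysed from 2 deposited tables. The authors made the first, a ratio of RPFs to total RNA per gene and replicate. The other holds, as deposited, per-codon in-frame RPFs normalised for library size and mRNA abundance with replicates pooled, for 1 transcript per gene. By the study's methods, reads were trimmed, RPFs of 28 to 30 nt were aligned to the hg19 transcriptome with an offset of 13 nt, and transcripts with under 25 RPF reads or a CDS of at most 300 nt were dropped. The submitters' processing notes name cutadapt 1.16, Bowtie 1.1.2, TopHat2 2.1.1 and HTSeq 0.9.1. How the ratio was formed is not stated in the labels or methods.

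TE was tested with limma 3.58.1 (R 4.3.3) as log2(TE + 0.01) minus the median of all values of all 8121 genes, with treat for the 2-fold limit and Benjamini-Hochberg adjustment over all genes. A fold on this scale understates that of low genes. On simulated data 161 of 200 moved genes were called, with 7 unmoved ones. There every unmoved gene lay at the common median, and no pseudocount was used. In the measured data most genes were called off the median, so these counts are not an error rate for the calls above. RPF and total RNA libraries of a number come from the same lysate, so the ratio is paired within a replicate. Log2 TE correlated between replicates at 0.987 to 0.990. The pairing could not be checked on the libraries themselves, since both tables hold them already combined.

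In-frame reads were recovered from the smallest steps of the occupancy values (98.8% of transcripts). They are sums over normalised replicates, so no binomial interval is given, and library totals were not given. Transcripts were matched to GENCODE 44 on GRCh37 by symbol and CDS length (8741 of 9570, 78 of 80 members). RefSeq mRNAs were counted per gene in RefSeq on GRCh38.p14, for 92.9% of genes with a TE. In 31 transcripts, CHD7 among the members, a profile broken over lines was rejoined. The named genes were the 8 highest and 8 lowest in TE, the highest and lowest of each family, a list of well-known members, paralog pairs, and the 5 with the highest 5′UTR ratio and peak share. CHD7, KDM5A, PHF6 and KDM4B were added to the 5′UTR ratio, HDAC3 and PHF5A to the peaks, and CHD1 and SETD2 as the lowest peaks, after their values were seen. Some results are not reported here. Members, lists and pairs were chosen with earlier results of these data known. Pseudocounts, filters, the reference, left-out replicates, a replicate block and the windows were varied.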

Additional observations from a re-analysis of the deposited data

Results flagged for a closer look

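In-frame reads after the stop codon belong to no comparison above, and 6 members had more than the 3 reads taken as the limit of a count of 0. KDM4B had 295 in-frame 3′UTR reads beside 2705 in its CDS, and 94.7% of its 3′UTR occupancy lay on a single codon, 506 codons after the stop. HDAC2 had 68 reads (74138 in the CDS) over 21 codons, PHF20 had 24 (1836 in the CDS) with 52.2% on codon 725, PHF5A had 14, SMARCA5 had 11 and SMARCC1 had 6. No 3′UTR read was found for 46 of 80 members, against 42.9% of all transcripts. A group of 3 replicates is too small for the check of single samples.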

How the results depend on the processing

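With the replicate block, 21 members were above the median and 42 below, and 8 and 21 were past 2-fold. The block changed 1 call, KDM7A (log2 0.18, limma adjusted p = 0.0494). Leaving out a replicate gave 18 to 20 above, 40 to 43 below, 8 and 20 to 23 past 2-fold, and 16 to 17 pairs that did not overlap. BRD3 lost its call without any of the 3, KDM1B without replicate 1 or 3, and PHF14 and SMARCAD1 without 1 or 2. KDM7A gained one without replicate 2 and PHF21A without replicate 3. The mean of all genes lies 0.17 above their median on the log2 scale, and with it 17 were above and 46 below. HDAC3, BRD3 and KDM1B then lost their call, and ARID3B, ARID5B, CHD7 and PHF21A were below. With a pseudocount of 0.1 the members over 2-fold below were 17, against 10.2% of all genes. Pseudocount 0.001 and the filter at a TE of 0.05 moved no count by more than 1. Among the 53 members with under 5% of shared 30-mers, 5 were over 2-fold above. The 30-mers were scanned for members only, so this count has no share of all genes beside it and is not read further.

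Some alternatives, chosen after seeing the data, used fewer genes and another median. With the genes of 1 RefSeq mRNA (18 members), 6 were above and 10 below, against 45.6% and 45.2% of all such genes, and 5 over 2-fold below, against 19.8%. BRD3 (-0.45), KDM4A (-0.18) and KDM7A (-0.44) then fell below the median. With CDSs of 500 codons or more (45 members), 22 were below, 2 over 2-fold above and 12 over 2-fold below, against 44.2%, 17.8% and 16.1% of all such genes. ARID3B (0.26), CHD7 (0.19), KDM1A (0.0355), PHF14 (0.0844) and SMARCAD1 (0.0527) moved above the median. The ratio of median CDS occupancies, members to all, was 0.768 and became 0.924 with long CDSs and 1.07 with 1 RefSeq mRNA. Pearson correlations on log values were -0.49 for TE with RefSeq mRNAs and -0.27 for TE with CDS length, against Spearman values of -0.44 and -0.21. The other alternatives moved no median or ratio by more than 10%. Of 70 members, 51 kept direction and call in every alternative run. Depth limits HDAC10 and HDAC11, and the occupancy table has no replicate error.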
